A study of Mus musculus with 369 samples.

Results

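Microglia sorted for the surface proteins Gpnmb and Clec7a were compared with unselected microglia, both from brains of Trem2 knockout mice at postnatal day 7. The comparison covers 166 cells: 76 from the gate CD45lowCD11+Gpnmb+Clec7a+ and 90 from the gate CD45lowCD11+. They were chosen as all knockout cells that passed the 3 quality criteria of the depositors, out of 334 passing cells of 4 groups, with 35 further cells that failed a criterion. The mice were male on a C57BL/6J background, and carried no other stated allele or treatment. Whole brains were dounced on ice, myelin was removed with magnetic beads, and single cells were sorted into wells of plates. Wild-type mice of the same age, background and sex gave 90 passing cells of the Gpnmb and Clec7a gate and 78 unselected cells, whose values are set beside those of the knockout. The design of the knockout allele was not given in the sources used here, nor was the number of brains behind each plate.

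Microglia, the macrophages that live in brain tissue, pass through several states. In the first postnatal week some of them, in developing white matter and other proliferative regions, take on an amoeboid state that carries the glycoprotein Gpnmb and the beta-glucan receptor Clec7a. Related states form around plaques and in demyelinated tissue, where they are known to need Trem2, a lipid-sensing surface receptor that signals through the adaptor Tyrobp. Spp1 is osteopontin, a secreted phosphoprotein that binds integrins and Cd44. Fam20c is the Golgi kinase that phosphorylates secreted proteins, osteopontin among them, and Fabp5 is a cytosolic carrier of fatty acids.

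Each of the 4 groups was 1 plate of cells, so each counted as 1 sample. Cells are not replicates, so no test was possible, and the plate cannot be told apart from the gate. Reads were counted per gene without molecular identifiers, so the intervals given cover counting error only. A knockout cell held between 157653 and 1051280 gene counts when unselected (median 649634) and between 186916 and 1030470 when gated (median 697689). The 2 plates differed in other ways. After each cell was thinned to 100000 counts, unselected cells had 396 to 3957 detected genes (median 1949) and gated cells 1189 to 6270 (median 3459). The ratio of gene counts to spike-in counts, from RNA added to each well, had a median of 53.7 in gated and 18.1 in unselected cells. The part of these differences in each result below was not tested, and values in cells matched on detected genes are given beside only some of the results.

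The targeted gene and the sorted proteins come first. Trem2 had 413 CPM (the group's counts of a gene over its total gene counts, scaled to parts per 1e+06; 95% exact Poisson interval 407 to 419) in the gated knockout cells and 229 CPM (225 to 233) in the unselected ones. In 28 gated and 28 unselected knockout cells matched on detected genes, Trem2 had 336 and 303 CPM. Wild-type cells had 1604 CPM when gated and 1115 CPM when unselected, so knockout cells had less Trem2 RNA but were not at 0, and counts from exons outside a deletion would look the same. Tyrobp had 1930 CPM in gated and 1077 CPM in unselected knockout cells. The genes of the sorted proteins differed as the sort set them, which is no finding. Gpnmb had 4233 against 85.2 CPM and Clec7a 594 against 40.9 CPM. Itgax, the complement receptor subunit also called CD11c, had 294 against 35.02 CPM. RNA of both Gpnmb and Clec7a was detected in 66 of 76 gated cells and in 9 of 90 unselected cells.

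Fam20c, Spp1 and Fabp5 were all far higher in the gated knockout cells. Spp1 levels ran from 0 to 67084 CPM per gated cell with a median of 29311, and from 0 to 44907 CPM per unselected cell with a median of 0. Gated cells were thus high almost throughout, and the ranges overlapped because a few unselected cells also held much Spp1. The summed level was 27524 CPM (27478 to 27570) in gated against 1560 CPM (1550 to 1570) in unselected cells, 17.6-fold higher. Spp1 was detected in 74 of 76 gated cells (97.4%, 95% Clopper-Pearson interval 90.8 to 99.7) and in 27 of 90 unselected cells (30.0%, 20.8 to 40.6). Most of the difference lay in the level per positive cell, here a cell with any count before thinning (97.4% of gated and 43.3% of unselected cells). Of a log2 ratio of mean CPM per cell of 4.41, the share of positive cells gave 1.17 and the mean level among them 3.25. The Spp1 promoter, the 250 bases before its first start site, is shown because it holds a match to the PU.1 motif GAGGAAGT, a motif found on either strand in 2.52% of 10248 promoters of measured genes. PU.1 is a transcription factor that all macrophages need. Capitals mark the match, which is a description of the letters and not a bound site.
Spp1 (GRCm38.p6, chr5:104434861-104435110, plus strand): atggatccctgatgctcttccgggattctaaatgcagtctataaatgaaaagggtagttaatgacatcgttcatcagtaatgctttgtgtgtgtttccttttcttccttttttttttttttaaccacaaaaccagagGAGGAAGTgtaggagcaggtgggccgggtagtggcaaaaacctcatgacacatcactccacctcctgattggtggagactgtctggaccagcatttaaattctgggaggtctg

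Fam20c showed another pattern, with a difference mostly in the share of positive cells. Its level per gated cell was 0 to 2051 CPM with a median of 11.8, and per unselected cell 0 to 134 CPM with a median of 0. The gated cells therefore included both negative and strongly positive cells, and 34.2% of them exceeded the highest unselected cell. Summed levels were 261.5 CPM (257 to 266) against 2.02 CPM (1.67 to 2.43), 86.9-fold higher. It was detected in 40 of 76 gated cells (52.6%, 40.8 to 64.2) and in 2 of 90 unselected cells (2.22%, 0.27 to 7.8). A single unselected cell held 92.2% of the unselected Fam20c counts. With positive cells again those with any count before thinning (55.3% and 3.33%), their share gave 4.05 and the level among them 3.07 of the log2 ratio of 7.12.

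Fabp5 was close to a switch between the plates. Gated cells had 0 to 1544 CPM with a median of 340, and unselected cells 0 to 578 CPM with a median of 0. It was detected in 71 of 76 gated cells (93.4%) and 8 of 90 unselected cells (8.89%), and its summed level was 407 against 20.9 CPM, 18.6-fold higher. When 1 gated and 1 unselected cell were drawn, the gated cell was the higher one in 94.8% of pairs for Fabp5, 95.6% for Spp1 and 76.5% for Fam20c, with ties shared evenly. All 3 RNAs were detected together in 40 of 76 gated cells and in 1 of 90 unselected cells. The differences were smaller but in the same direction among cells with like numbers of detected genes. In 28 pairs matched within 200 detected genes, the log2 difference was 2.88 for Spp1, 3.01 for Fabp5 and 5.17 for Fam20c, against 4.14, 4.22 and 6.44 in all cells. There Spp1 was detected in 92.9% of gated and 39.3% of unselected cells, Fabp5 in 82.1% and 10.7%, and Fam20c in 28.6% and 3.57%. In these pairs Spp1 had 24572 against 3347 CPM, Fabp5 284 against 34.4 CPM and Fam20c 238 against 5.63 CPM. All 3 were lower in the matched gated and higher in the matched unselected cells than over all cells of each group. The matched unselected cells also had more Gpnmb RNA (220 CPM), and the part of this was not tested.

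**Figure D1:**
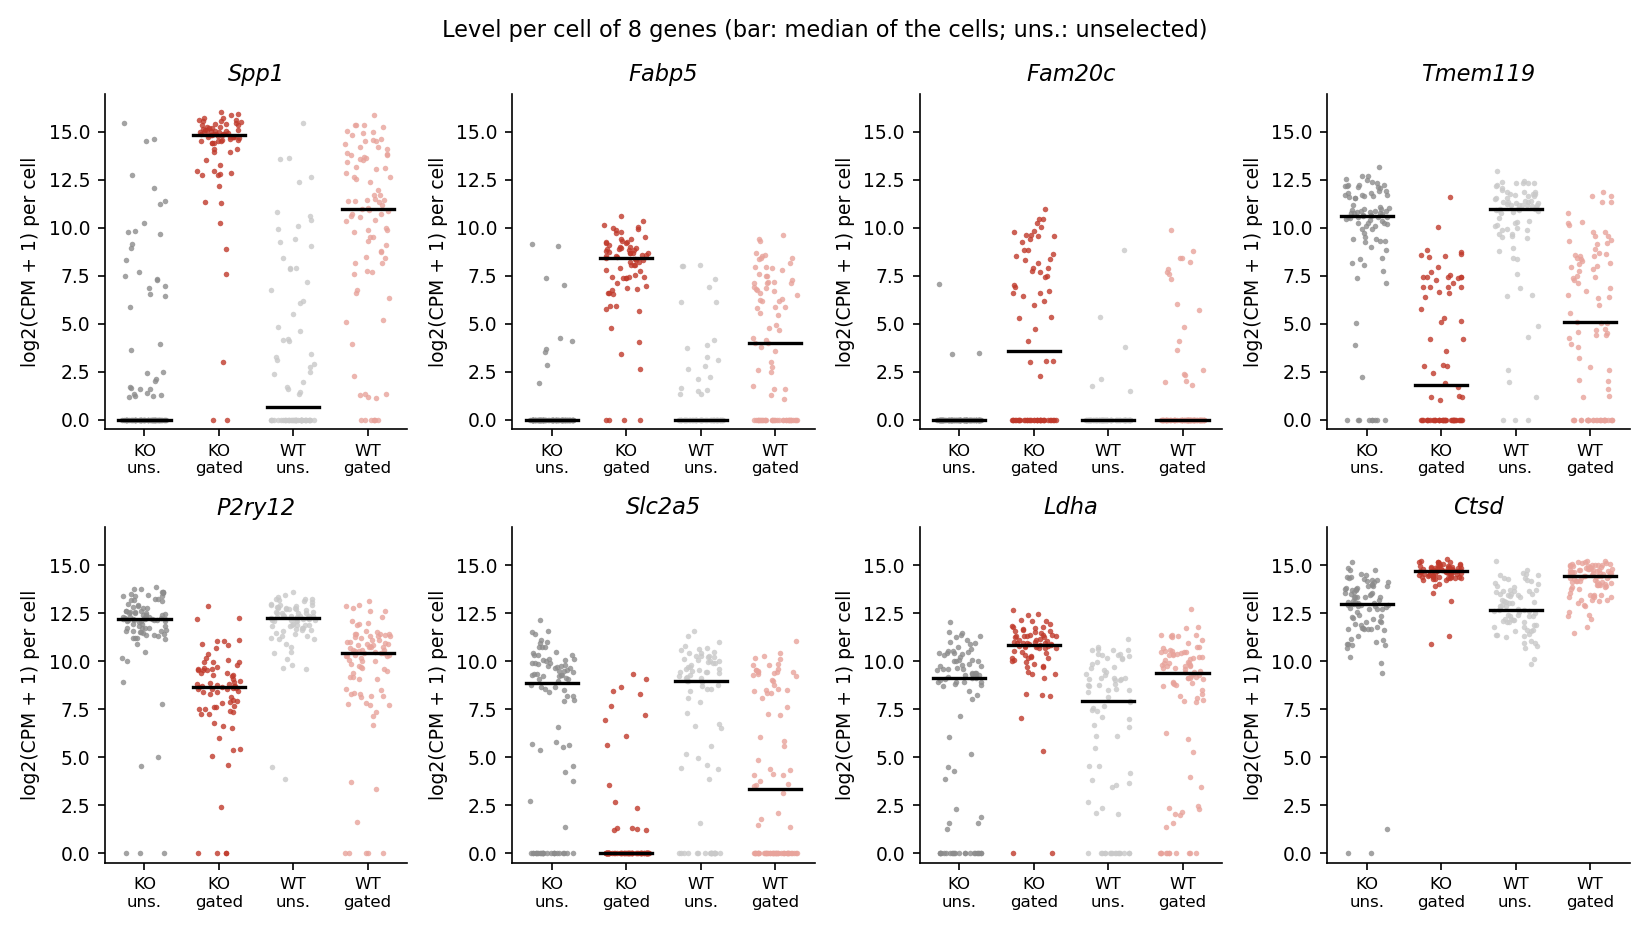
Level of 8 genes in each cell as log2(CPM + 1), with 1 point per cell and a bar at the median, in unselected and gated cells of both genotypes. Spp1, Fabp5 and Fam20c were high in the gated knockout cells (medians of 29311, 340 and 11.8 CPM, against 0 in unselected knockout cells), while Tmem119, P2ry12 and Slc2a5 were low in them.

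Of the other genes around osteopontin, few differed. The 11 measured genes of the list of osteopontin, secretory kinases and receptors, Spp1 and Fam20c included, had a median log2 difference of -0.03. Of them 4 were at least 2-fold higher (Spp1, Fam20c, Cd44 and Itga4) and 1 was lower (Itga9). Here and below a gene counted as measured at 5 CPM in either knockout group, its difference was log2 of gated over unselected CPM with 1 CPM added to both (which understates the change of low genes), and a 2-fold difference had to hold also for mean CPM per cell. Over all 9882 measured genes, 1150 (11.6%) were 2-fold higher and 2229 (22.6%) 2-fold lower in the gated cells, with a median of -0.29. Detection by 25 percentage points more of the gated cells was met by 2262 genes (22.9%) and by 25 points fewer by 7 genes (0.0708%). Cd44, the hyaluronan receptor that also binds osteopontin, had 45.2 CPM in gated cells and 0.123 CPM, 7 counts in all, in unselected ones. After thinning it was detected in 42.1% of gated cells and in none of the 90 unselected cells, and before thinning in 48.7% and 4.44%. Itga4, an integrin subunit, had 17.9 CPM against no count in unselected cells, at least 339-fold higher when the floor is taken as 3 counts over the group. The integrin subunit Itga9 was lower, with 14.5 against 61.3 CPM, but its log2 difference was 1.48 in the 28 pairs of cells matched on detected genes.

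Growth factors and matrix genes were partly higher, 9 of 20 against 4 lower. Igf1, the insulin-like growth factor, separated the plates nearly as well as Spp1. Its level per gated cell was 0 to 1970 CPM with a median of 973, and per unselected cell 0 to 743 CPM with a median of 0. Most gated cells, 65.8%, lay above the highest unselected cell. Summed levels were 979 against 71.2 CPM, with detection in 97.4% and 30.0% of cells. Csf1, a growth factor of microglia themselves, had 257 against 44.4 CPM. Emilin2, an extracellular matrix glycoprotein, had 48.3 CPM and was detected in 22 gated cells, against no count in unselected cells (at least 915-fold higher).

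The genes furthest apart by detection included an enzyme of the matrix and a lipid carrier. Hpse, the heparan sulfate-cleaving enzyme heparanase, was detected in 89.5% of gated and 16.7% of unselected cells, with 456 against 31.2 CPM. BC021767 was detected in 78.9% and 5.56% of cells and Gm1673 in 89.5% and 11.11%. Fabp3, a second fatty acid carrier, was found in 78.9% and 7.78%. These are all genes that went from a minority of unselected cells to most gated cells. By fold, Sardh, a mitochondrial sarcosine dehydrogenase, had 47.1 against 0.0879 CPM, Mcoln3, an endolysosomal cation channel, 42.2 against 0.158 CPM, and Ms4a7, a membrane protein of macrophages, 50.999 against 0.545 CPM. Cd28, a costimulatory receptor best known from T cells, had 90.0 against 1.74 CPM and was detected in 52.6% and 4.44% of cells, while Cd3d, Cd3e and Cd3g were at 0 in both groups.

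**Figure D2:**
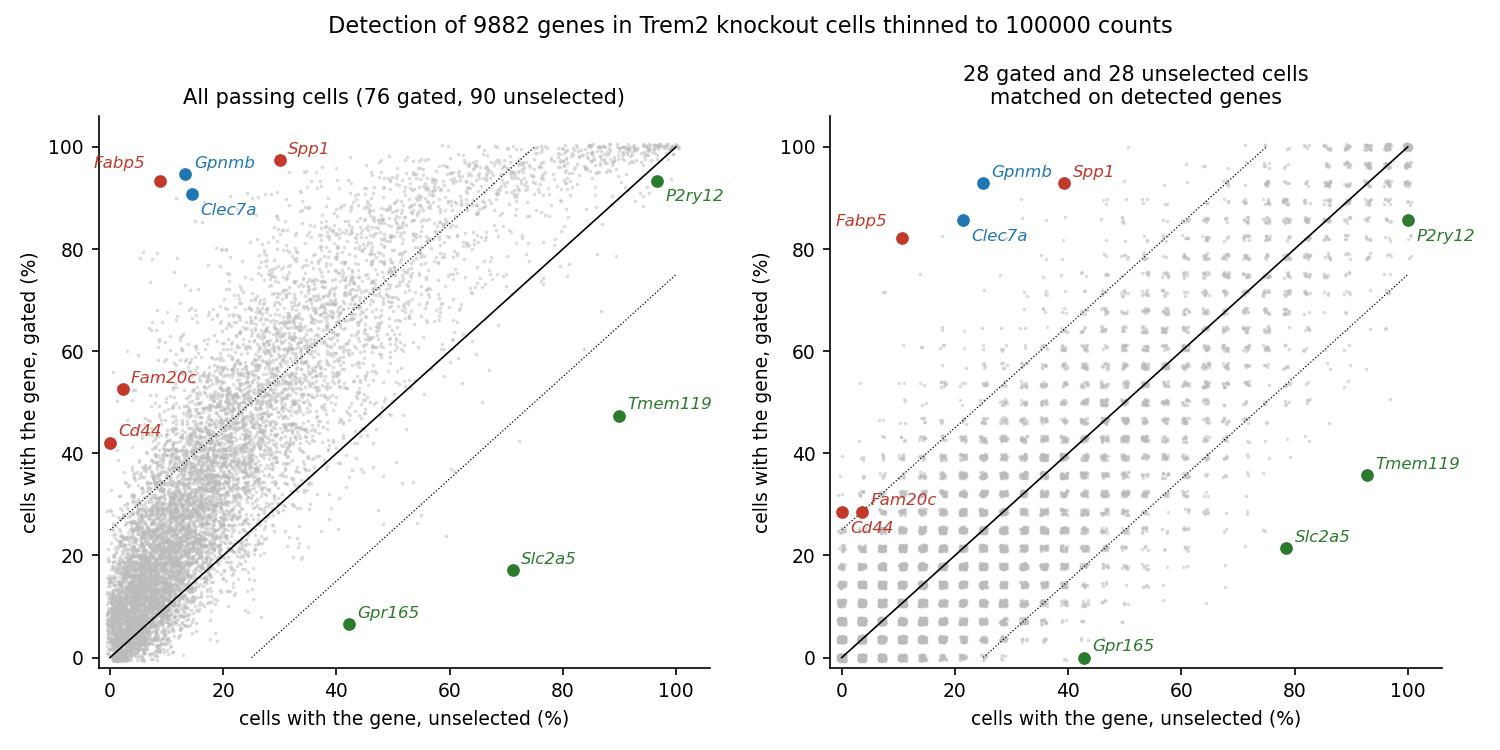
Percent of gated (y axis) against percent of unselected (x axis) knockout cells in which each of 9882 genes was detected after thinning, with dotted lines at 25 points of difference. With all 76 and 90 cells (left) 2262 genes lie above the upper line and 7 below the lower one, and with 28 and 28 cells matched on detected genes (right) 311 and 384.

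Detection moved with the number of detected genes per cell. The median gene was detected in 13.3 points more of the gated cells, and 1307 genes that were 2-fold lower by summed counts were nevertheless detected in more gated cells. In the 28 matched pairs, with medians of 2816.5 detected genes in gated and 2914.5 in unselected cells, the median gene differed by 0 points, 311 genes were past 25 points upward and 384 downward. The matched sets differed in cell cycle: cells with Mki67 or Top2a RNA were 4 of 28 gated and 15 of 28 unselected cells, against 28 of 76 and 35 of 90 before matching. Levels also rested on few cells for many genes. In 100 of the 1150 higher and 517 of the 2229 lower genes, 1 cell held over 50% of the counts of the group with the higher level.

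Genes of the homeostatic state of microglia were lower in the gated cells. Of 35 measured genes, 21 were at least 2-fold lower and 2 higher by CPM, with a median of -1.16 against -0.29 over all genes. Relative to the spike-in RNA 10 were lower and 4 higher, with a median of 0.18 against 1.06 over all genes. The sign of the list median thus depended on the scaling. Its distance from the median of all genes did not, at -0.87 by CPM and -0.88 relative to spike-in RNA. Tmem119, a microglial membrane protein, ran from 0 to 3101 CPM per gated cell with a median of 2.53 and from 0 to 9165 CPM per unselected cell with a median of 1587. Summed levels were 110.5 CPM (108 to 113) against 2107 CPM, 18.9-fold lower. It was detected in 36 of 76 gated (47.4%) and 81 of 90 unselected cells (90.0%), so that the gated cells were mostly low but a few overlapped with the bulk of the unselected ones. Slc2a5, the fructose transporter GLUT5, had 37.2 against 676 CPM, 17.7-fold lower, with medians per cell of 0 and 461 CPM and detection in 17.1% and 71.1% of cells. P2ry12, the ADP receptor that steers microglial processes, behaved differently. It was detected in 93.4% and 96.7% of cells, but at medians of 408 and 4745 CPM, and its summed level was 7.43-fold lower, 729 against 5418 CPM. Relative to spike-in RNA these 3 genes were still lower, by log2 -2.91 for Tmem119, -2.83 for Slc2a5 and -1.56 for P2ry12.

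Gpr165, an orphan receptor, was lower still, at 3.25 against 189 CPM. The adhesion receptor gene Gpr56 had 23.4 against 366 CPM. Siglech, a sialic acid-binding lectin, differed less, at 425 against 1748 CPM. The chemokine receptor Cx3cr1 had 5434 against 11349 CPM and the receptor Csf1r 3773 against 8422 CPM, log2 differences of -1.06 and -1.16. For this pair the sign turned relative to spike-in RNA, to 0.27 for Cx3cr1 and 0.18 for Csf1r. Sall1, a transcription factor that keeps microglial identity, had 140 against 329 CPM (-1.23, and 0.10 relative to spike-in RNA). In the matched pairs 11 of 35 homeostatic genes were detected in at least 25 points fewer gated cells and 1 in more, with Tmem119 at 35.7% against 92.9% and Slc2a5 at 21.4% against 78.6%.

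Further genes with large drops in detection or level included members of the homeostatic list (St3gal6, Crybb1 and Asb2) and genes outside it. St3gal6, a sialyltransferase, had 29.2 against 232 CPM and was detected in 26.3% of gated and 54.4% of unselected cells. Med12l, a Mediator subunit paralog, had 20.6 against 152 CPM, with detection in 42.1% and 72.2%. Fscn1, which bundles actin, had 38.5 against 144 CPM, Crybb1, a crystallin that immature microglia express, 119 against 482 CPM, and Ecscr, a membrane protein best known from endothelium, 26.7 against 162 CPM. Asb2, a ubiquitin ligase subunit, had 6.77 against 129 CPM and Tnrc6a, a partner of Argonaute proteins, 5.88 against 58.96 CPM. Each of these was also lower in the gated wild-type cells, by summed counts: St3gal6 had 96.2 against 244 CPM there, Crybb1 203 against 475 CPM and Tnrc6a 19.5 against 36.7 CPM.

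Genes known from disease-associated microglia and from microglia of proliferative regions formed a one-sided list. Of 32 measured members, 24 were at least 2-fold higher and none lower, with a median of 1.43 against -0.29 over all genes, and 19 were detected in 25 points more gated cells. The list shares its origin with the sorted state and is no independent evidence of direction. Annexins, galectins and S100 proteins, which bind membranes, sugars or calcium, had 8 of 13 higher and none lower, with a median of 1.11. Lgals3, galectin-3, had 244 against 25.3 CPM and was detected in 77.6% and 7.78% of cells. Anxa2 had 407 against 62.1 CPM. Anxa5, the phosphatidylserine-binding annexin, was detected in 100% of gated and 32.2% of unselected cells. In the matched pairs 7 of 14 of these genes and 10 of 31 disease-associated genes were detected in 25 points more gated cells, and none in fewer.

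**Figure D3:**
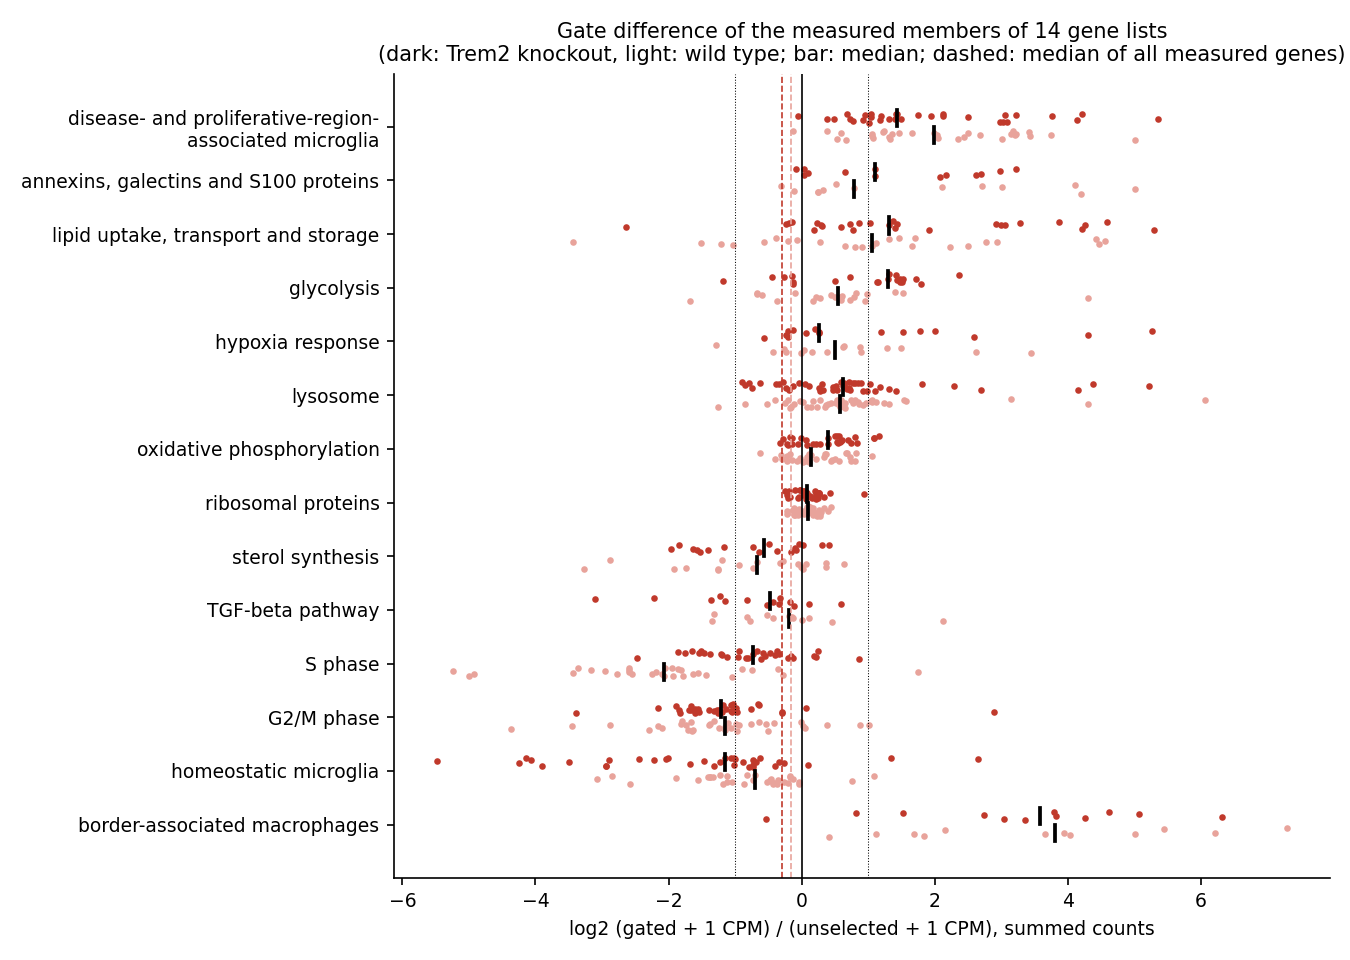
Log2 difference between gated and unselected cells for each measured gene of 14 lists, by CPM, in knockout (dark) and wild-type (light) cells, with bars at list medians, a dashed line at the median of all genes and dotted lines at 2-fold. The disease-associated list lies to the higher side (median 1.43 in knockout, 1.99 in wild type) and the homeostatic list to the lower side (-1.16 and -0.70). Relative to spike-in RNA the homeostatic median in knockout was 0.18, against 1.06 over all genes.

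Lipid uptake, transport and storage genes were higher, 15 of 27 against 1 lower, with a median of 1.32. Apoe, the main lipoprotein of brain lipid transport, ran from 7522 to 103678 CPM per gated cell with a median of 27810 and from 0 to 54477 CPM per unselected cell with a median of 6824. Every gated cell lay above the unselected median, though the ranges overlapped. Lpl, which releases fatty acids from lipoproteins, had 1416 against 532 CPM. Plin2, which coats lipid droplets, had 949.5 against 380.5 CPM, and Soat1, which esterifies cholesterol, 684 against 263 CPM. Apoc1 had 71.4 against 8.05 CPM. Apoc2, the activator of Lpl, had 18.2 CPM in gated cells against no count, at least 346-fold higher. Sterol synthesis genes had no member higher and 7 of 18 lower. Their median was -0.56 by CPM and 0.94 relative to spike-in RNA, where the median of all genes was 1.06. In the matched pairs 5 were higher and 7 lower, with a median of 0.29. Fdft1 (squalene synthase) had 9.86 against 38.2 CPM and Nsdhl 12.8 against 52.6 CPM, but both were detected in slightly more gated cells (13.2% against 8.89%, and 17.1% against 12.2%).

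Glycolysis genes were higher as well, 14 of 22 with 1 lower and a median of 1.30. Ldha, lactate dehydrogenase A, ran from 0 to 6488 CPM per gated cell with a median of 1867 and from 0 to 4275 CPM per unselected cell with a median of 554. The ranges overlapped widely, and the gated cell was higher in 82.2% of pairs. Slc16a3, the lactate exporter MCT4, had 264 against 50.3 CPM and was detected in 80.3% and 21.1% of cells. Gapdh had 923 against 345 CPM, Tpi1 883 against 254 CPM and Aldoa 1732 against 611 CPM, all enzymes of the pathway's trunk. The lower member was the hexokinase Hk3, with 106.5 against 243 CPM (log2 0.14 relative to spike-in RNA). In the matched pairs the levels of Ldha and Slc16a3 remained higher by log2 1.00 and 1.12, and 8 glycolysis genes were 2-fold higher against 2 lower.

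Hypoxia response genes had 7 of 16 higher and none lower, with a median of 0.26. Egln3, an oxygen-sensing prolyl hydroxylase, had 37.4 CPM and was detected in 28.9% of gated cells against no count in unselected ones (at least 710.0-fold higher). Bnip3, a mitophagy receptor, had 321 against 92.6 CPM, and the cytokine Mif 288 against 71.2 CPM. P4ha2, a collagen prolyl hydroxylase, had 24.4 against 0.281 CPM. Hif1a itself, the oxygen-regulated factor, had 410 against 178.5 CPM, a log2 difference of 1.20. Oxidative phosphorylation, by contrast, had 3 of 31 higher and a median of 0.40, although 26 of its genes were detected in 25 points more gated cells. In the matched pairs 1 of its genes met that detection limit. The promoters of 3 higher genes are shown for the core of the hypoxia response element, ACGTG, in capitals on either strand. It is found in 22.4% of all promoters of measured genes and in 22.5% of those of all 2-fold higher genes. Among glycolysis genes it was in 15 of 32 promoters of the whole list (46.9%) and 10 of 21 of the higher members (47.6%), and among hypoxia genes in 9 of 19 (47.4%) and 6 of 7 (85.7%). The hypoxia list was drawn from known targets of this response. Of 33 promoters of homeostatic genes, 3 held it (9.09%). In Bnip3 it falls within CACGTG, which contains it.
Slc16a3 (GRCm38.p6, chr11:120948817-120949066, plus strand): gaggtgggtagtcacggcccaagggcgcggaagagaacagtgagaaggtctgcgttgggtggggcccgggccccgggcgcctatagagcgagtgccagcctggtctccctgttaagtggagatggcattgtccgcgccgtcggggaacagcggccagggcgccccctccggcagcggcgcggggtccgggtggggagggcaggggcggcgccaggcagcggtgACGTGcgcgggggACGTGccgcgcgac
Egln3 (GRCm38.p6, chr12:54203875-54204124, minus strand): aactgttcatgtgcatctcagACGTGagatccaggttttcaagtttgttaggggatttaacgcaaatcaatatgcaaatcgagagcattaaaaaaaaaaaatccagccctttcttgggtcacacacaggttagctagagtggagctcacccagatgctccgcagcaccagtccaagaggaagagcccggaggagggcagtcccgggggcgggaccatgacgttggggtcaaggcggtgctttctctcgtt
Bnip3 (GRCm38.p6, chr7:138909507-138909756, minus strand): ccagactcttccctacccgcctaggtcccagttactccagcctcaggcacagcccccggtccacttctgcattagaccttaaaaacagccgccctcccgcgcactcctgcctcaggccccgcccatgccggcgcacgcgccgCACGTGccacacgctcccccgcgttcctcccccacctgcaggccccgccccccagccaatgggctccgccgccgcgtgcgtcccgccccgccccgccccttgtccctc

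Lysosomal genes were higher in part, 11 of 47 with none lower and a median of 0.62. Ctsd, the main aspartic protease of the lysosome, ran from 1909 to 40673 CPM per gated cell with a median of 26542 and from 0 to 36983 CPM per unselected cell with a median of 8204. Gated cells were higher in 92.4% of pairs. Atp6v0d2, a subunit of the proton pump that is also found in osteoclasts, had 353 against 16.1 CPM and was detected in 52.6% of gated cells but in 1.11% of unselected cells, where 1 cell held all of its counts. Atp6v1a, the catalytic subunit, had 483 against 137.5 CPM. Acp5, tartrate-resistant acid phosphatase, had 16.7 CPM against no count (at least 317-fold higher). Gla, alpha-galactosidase, had 66.7 against 12.8 CPM. Ctsb, a cysteine protease, had 17181 against 9058 CPM and missed the 2-fold line. The promoters of Ctsd and Gla are shown for the E-box CACGTG, the core of the site that TFEB and TFE3 are known to bind at lysosomal genes. It is found in 8.58% of all promoters, in 7.99% of those of all 2-fold higher genes, in 12 of 42 promoters of the whole lysosome list (28.6%) and in 6 of 12 of its higher members (50.0%). Capitals mark CACGTG, the contained ACGTG and, in Gla, a match to the PU.1 motif, on either strand. The first capitals in Gla, CACGT, are a lone ACGTG on the other strand and not an E-box.
Ctsd (GRCm38.p6, chr7:142387828-142388077, minus strand): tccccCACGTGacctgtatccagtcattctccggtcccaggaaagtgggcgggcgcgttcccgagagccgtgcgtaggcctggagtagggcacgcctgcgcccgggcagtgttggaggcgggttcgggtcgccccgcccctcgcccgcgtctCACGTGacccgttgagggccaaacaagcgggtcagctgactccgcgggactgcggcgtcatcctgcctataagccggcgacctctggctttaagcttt
Gla (GRCm38.p6, chrX:134601006-134601255, minus strand): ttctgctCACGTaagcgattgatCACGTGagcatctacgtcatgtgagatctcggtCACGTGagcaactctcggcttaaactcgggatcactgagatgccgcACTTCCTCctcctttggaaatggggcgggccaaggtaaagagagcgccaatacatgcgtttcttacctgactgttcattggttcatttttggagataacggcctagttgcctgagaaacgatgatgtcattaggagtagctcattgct
All promoters are from RefSeq, with 8036 of 9882 measured genes matched and 8021 of them in the motif counts.

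Cell cycle genes were lower by CPM. Of 36 measured G2/M genes, 27 were 2-fold lower and 1 (Ttk) higher, with a median of -1.21. Of 31 S phase genes 11 were lower and none higher, with a median of -0.73. Relative to spike-in RNA both medians were above 0 (0.11 and 0.59) but below that of all genes (1.06). Mki67, the proliferation antigen, had 143 against 345 CPM, and Top2a, which untangles replicated DNA, 109 against 225 CPM, and relative to spike-in RNA their log2 differences were 0.070 and 0.29. The share of cells with RNA of either was 28 of 76 gated and 35 of 90 unselected cells. Ect2, which acts in cytokinesis, had 3.27 against 43.6 CPM. Kif2c, a mitotic kinesin, had 19.9 against 92.5 CPM and Cdc20, an activator of the anaphase complex, 55.3 against 208 CPM. Without the cells that held Mki67 or Top2a RNA, 3 G2/M genes were lower and 5 higher with a median of 0.05. Both genes are members of the G2/M list, so leaving out these cells removes the list's own RNA and tests nothing about it. In the remaining cells S phase had 13 lower and 2 higher with a median of -1.03. The homeostatic list had 21 lower and the disease-associated list 23 higher.

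Markers of border-associated macrophages, which sit in the meninges and around vessels, moved with the gate. Of 12 measured markers, 10 were higher and none lower, with a median of 3.58, and the summed marker level per cell was 99.9 to 20290 CPM in gated (median 1970) and 0 to 5687 CPM in unselected cells (median 960). Lyve1 had 86.5 against 2.57 CPM from 2.63% and 1.11% of cells (log2 -1.91 without the cells with several such markers), F13a1 78.4 CPM from 7.89% of gated cells against no count, and Mrc1 303 against 442 CPM. At least 2 of 6 defining markers were detected in 18 of 76 gated and 6 of 90 unselected cells. Without those cells the values above were of like size: 24 disease-associated genes higher, 13 lipid, 13 glycolysis, 19 homeostatic genes lower, and a median log2 of 4.45 over Spp1, Fabp5 and Fam20c. Monocyte markers summed to 27.8 CPM in gated and 4.48 CPM in unselected cells, with Ly6c2 and Ccr2 at 0 in both. The neutrophil markers S100a9 and Mpo, the oligodendrocyte markers Mog and Olig1 and the endothelial markers Cldn5 and Cdh5 were at 0 in both groups. Of the markers of these types that were measured, the receptor Cxcr2 had 0.06 against 47.7 CPM from 5.56% of unselected cells, and Pecam1 1.03 against 26.4 CPM. Summed lymphocyte markers had 80.4 CPM in gated and 108 CPM in unselected cells, nearly all from Cd79b, with Ms4a1 at 0. Summed oligodendrocyte markers had 110 and 161 CPM and summed astrocyte markers 29.9 and 36.4 CPM. No marker of neurons, of pericytes and fibroblasts or of red blood cells reached 5 CPM. Of 11 microglial markers 7 were lower and none higher by CPM, and 2 lower and 1 higher relative to spike-in RNA. Their summed level was 25356 CPM in gated and 48274 CPM in unselected cells.

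Signalling and immune lists moved less, and not in 1 direction. TGF-beta pathway genes, which keep the homeostatic state, had 5 of 14 lower and none higher; their median was -0.48 by CPM and 0.83 relative to spike-in RNA. The receptor Tgfbr1 had 48.01 against 227 CPM and Lrrc33, which presents latent TGF-beta on microglia, 365 against 941.5 CPM. Genes downstream of Trem2 split, 2 of 19 higher and 3 lower. Innate sensors had 1 of 24 higher and 8 lower by CPM, and 13 higher and 3 lower relative to spike-in RNA. The lower ones by CPM included Tmem173 (STING) with 18.4 against 219 CPM, Tlr3 with 2.18 against 30.95 CPM and the inflammasome sensor Nlrp3 with 23.2 against 82.04 CPM. Of 11 cytokines and chemokines, 3 were higher and 3 lower, with the chemokine Ccl12 at 10.5 against 73.3 CPM and Il1rn, the interleukin-1 receptor antagonist, at 30.0 against 1.62 CPM. Complement, Fc and engulfment receptors had 4 of 26 higher and 3 lower. The scavenger receptor Stab1 was higher at 1175 against 409 CPM. Transcription factors of microglia and lysosomes had 9 of 29 higher and 4 lower, with Cebpa, a myeloid factor, at 59.1 against 10.4 CPM and detection in 68.4% and 8.89% of cells. Interferon response genes had 6 of 19 higher and 3 lower, antigen presentation 1 of 16 higher and 2 lower, and immediate early genes 3 of 17 higher and 7 lower. Relative to spike-in RNA these lists had 17 higher and 1 lower, 13 and 0, and 9 and 3. Cytokines had 7 and 2 and complement receptors 19 and 0. Over all measured genes that scaling gave 5552 higher and 537 lower (91.2% of them higher), with a median of 1.06. An upward lean was thus not particular to the lists of this paragraph. None of 34 ribosomal protein genes was past 2-fold by CPM, and all 34 were higher relative to spike-in RNA.

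The genes that separated the plates were also counted within single cells. A panel of 10 genes higher and 11 genes lower in the gated cells was taken from those named by detection, so the counts that follow describe the pattern and test nothing. Whether the genes shared cells beyond what the detection share of each gene gives was not computed. A gated knockout cell held a median of 9 of the 10 higher genes and an unselected one a median of 0. At least 5 of the 10 were detected in 70 of 76 gated cells (92.1%) and in 6 of 90 unselected cells (6.67%). The panel of lower genes was less sharp, with medians of 3 of 11 in gated and 7 of 11 in unselected cells, and at least 6 of them in 7 and 67 cells. Few knockout cells held many of both panels, 6 gated and 3 unselected ones. The few gated cells below 5 higher genes had fewer detected genes, with a median of 2011.5 against 3659 in the others.

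**Figure D4:**
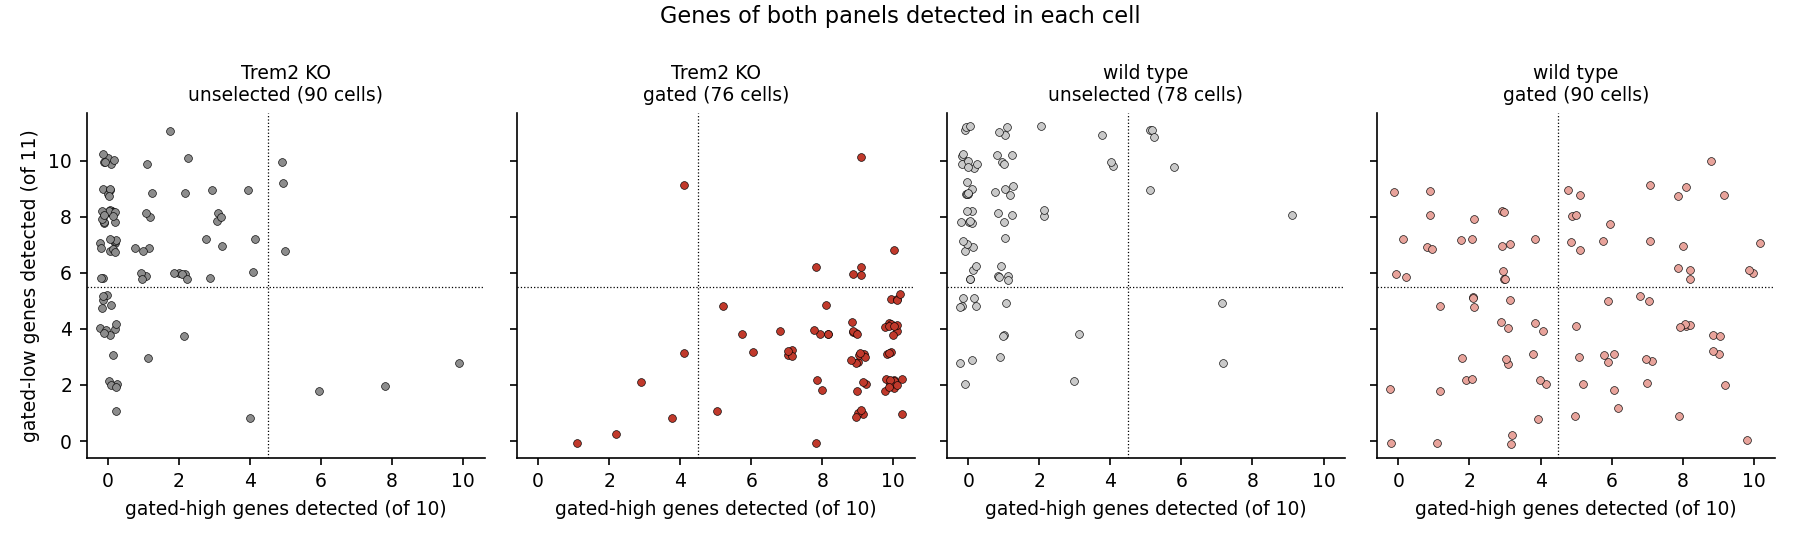
Number of higher-panel genes (of 10) against lower-panel genes (of 11) detected in each cell, with 1 slightly shifted point per cell in each of the 4 groups and dotted lines at 5 and 6 genes. Of the gated knockout cells 70 of 76 lie at 5 or more higher-panel genes, against 47 of 90 gated wild-type cells. Both panels were chosen on the knockout cells.

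The same sort in wild-type cells gave values that are set beside those of the knockout; the difference between genotypes was not tested, with 1 plate in each group. Spp1 had 8779 CPM in gated and 936 CPM in unselected wild-type cells, with medians per cell of 2053 and 0.77 CPM and detection in 86.7% and 37.2% of cells. Fabp5 had 101 against 16.9 CPM and was detected in 54.4% and 16.7% of wild-type cells. Fam20c had 44.4 against 5.59 CPM, with detection in 15.6% and 5.13%. All 3 genes were thus higher in the gate in both genotypes, and the gated levels were higher in the knockout plate. The gated plates also differed in RNA of the sorted proteins. Both Gpnmb and Clec7a were detected in 49 of 90 gated wild-type cells (54.4%) and in 66 of 76 gated knockout cells (86.8%). The part of this in the values compared here was not tested. Igf1 had 563 against 62.9 CPM in wild type. Tmem119 had 370 against 2222 CPM and P2ry12 1782 against 5263 CPM, both lower in the gate. In wild type 14.3% of 9879 genes were 2-fold higher and 20.5% 2-fold lower, and 1.36% were detected in 25 points more and 0.415% in 25 points fewer gated cells. There 26 of 31 disease-associated genes were higher (24 of 32 in the knockout) and 14 homeostatic genes were lower (21 in the knockout). Glycolysis had 3 genes higher and 1 lower with a median of 0.54 in wild type, beside 14 and 1 with 1.30 in the knockout. At least 5 of the 10 higher-panel genes were detected in 47 of 90 gated (52.2%) and 8 of 78 unselected wild-type cells (10.3%). The panels were chosen on the knockout plates, which favours a larger contrast there. Gated wild-type cells also had fewer detected genes after thinning, a median of 2641.5 against 3459 in gated knockout cells. Both panels together, by the same limits, were held by 21 gated wild-type cells and 6 gated knockout cells. Border-macrophage markers were higher in the gate in wild type too, 11 of 12 with a median of 3.80.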

How the data were processed

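Single cells were sequenced with Smart-seq2. Reads were trimmed with Trim Galore 0.4.3, aligned to mm10 with STAR 2.5.3a and counted with HTSeq, per the submitters' processing notes. Neither the annotation nor the strand setting is given in the sources used here. The authors deposited whole-number read counts per gene and cell for 23337 genes and 92 spike-ins. Cells passing all 3 deposited quality criteria were used, and spike-ins were left out of totals. Counts were summed per group, scaled to CPM and compared as log2 ratios with 1 CPM added, for genes at 5 CPM in either group. For detection, each cell was thinned to 100000 counts (seed 7) and 1 count counted as detected. The fold step was run on simulated cells that all shared a single profile per group, without the variation between cells seen here. Thinning was checked only for the depth reached, so detection shares were not tested. Tools were Python 3.11.15, numpy 2.4.6, pandas 2.3.3, scipy 1.17.1, matplotlib 3.10.9, R 4.3.3 and, for TMM factors only, edgeR 4.0.16. No 2 cells had identical columns.

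The members and the 23 pathway and 11 marker lists (658 of 661 symbols matched) were chosen with earlier results of these data known. Named genes were the sorted genes and markers, the 12 furthest apart by detection and 10 by fold in each direction at 20 CPM or more, up to 4 per list, and the 5 with the highest and lowest correlation with Spp1. Further list members were named after their values were seen. Some genes that the rule names are not reported here. Alternatives were other scalings, pseudocounts, filters, thinning depths, matched cells and cells left out by marker.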

Additional observations from a re-analysis of the deposited data

Results flagged for a closer look

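Smad7, an inhibitor of TGF-beta signalling, was flagged because the gate moved it in opposite directions in the 2 genotypes. Its log2 difference was -1.23 in knockout cells (2.8 CPM gated, 7.8 CPM unselected) and 2.12 in wild-type cells (7.1 CPM gated, 0.9 CPM unselected). It was detected in 6.58% of gated and 7.78% of unselected knockout cells, so few cells carry these levels. The difference between genotypes was not tested.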

How the results depend on the processing

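The scaling mattered most. Of genes past 2-fold in the knockout, 34.03% were higher by CPM (1150 against 2229), 50.96% with TMM factors (1640 against 1578), 51.2% with median-of-ratios factors (1647 against 1570) and 91.2% relative to spike-ins (5552 against 537); the median of all genes was 0.00, 0.01 and 1.06 under the last 3. Relative to spike-ins 26 lipid, 40 lysosome, 15 annexin-group and 15 hypoxia genes were higher, 10 homeostatic genes lower and 1 G2/M gene lower. TMM and median-of-ratios factors each gave 19 higher lysosome and 14 lower G2/M genes. A 20 CPM filter left 567 higher and 1410 lower genes. The 28 matched pairs gave 1737 higher genes, 7 of them lysosomal and 8 glycolytic, and 311 and 384 genes past 25 points of detection. There the median was 0.46 for lysosomal (7 higher, 1 lower), 0.62 for hypoxia (6 and 1) and 0.90 for lipid genes (10 and 1). It was -1.44 for S phase (0 and 21) and -2.70 for G2/M genes (1 and 32). Without cells with Mki67 or Top2a RNA, both genes of the G2/M list itself, 3 G2/M genes were lower and 5 higher (median 0.05). Detection at 5 or more thinned counts gave 1052 and 13 genes. For the other 169 results, 148 of them single genes, 873 values under the alternatives stayed within counting error (or 1.5 times, for counts) and 1014 moved beyond it. Sign changes were counted only among these 148 genes, not among all genes past 2-fold. Of those past 2-fold by CPM, 14 values changed sign: relative to spike-ins Csf1r (0.18), Cx3cr1 (0.27), Hk3 (0.14), Mki67 (0.070), Sall1 (0.10) and Top2a (0.29), without border-marker cells Lyve1 (-1.91), in matched pairs Itga9 (1.48), Fdft1 (0.61), Insig1 (0.76), Cd80 (3.14) and Cd74 (0.38), and without Mki67 or Top2a cells Egr1 (2.87) and Ttk (-0.042). A further 7 of the 148 that were within 2-fold changed sign under some alternative. The causes were not tested. No paired analysis was possible because each group is 1 plate and no result comes from a test.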

Other observations

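Among the 76 gated knockout cells, levels after thinning were correlated across cells as a description only, since the cells share 1 library plate and differ in detected genes. Spearman's rho with Spp1 was highest for Ctsz (0.58), a lysosomal cysteine protease, followed by Sh2d3c (0.47), Glrx3 (0.47), Fam162a (0.47) and Fabp3 (0.46). It was lowest for Dpysl2 (-0.40), Prex1 (-0.39), Itm2b (-0.38), Cbx1 (-0.38) and Maf (-0.36). Fam20c and Fabp5 had a rho of 0.49 with each other, but 0.40 and 0.60 with the number of detected genes. Spp1 had 0.22 with detected genes, 0.13 with Fam20c and -0.03 with Tmem119.

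A single unselected knockout cell held the most read counts of its plate for 7 of 19 genes, among them Spp1 (44907 CPM), Fam20c, Fabp5, Anxa2 and Cd28. It held 10 of 10 higher-panel and 3 of 11 lower-panel genes and 4312 detected genes, and its Gpnmb level was 2777 CPM.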
